A study of Mus musculus with 11 samples.

Results

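The gene segments of the T cell receptor (TCR) alpha and beta loci were followed in lung group 2 innate lymphoid cells (ILC2) and in thymic DN3 cells. The segments were the entries of the deposited count table whose symbol names a Trbv, Trbd, Trbj or Trbc segment or a Trav, Traj or Trac segment, leaving out the symbols shared with the TCR delta locus (Trav-dv). The rule took 234 of 57186 entries and used no measured value: 53 belong to the beta locus (35 Trbv, 2 Trbd, 14 Trbj, 2 Trbc) and 181 to the alpha locus (120 Trav, 60 Traj, 1 Trac).

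All cells came from untreated 14-day-old mice of the genotype Cd3giCreRosa26stopZsGreen, in which Cre expressed with Cd3g removes a stop sequence ahead of the reporter ZsGreen. Lung ILC2 without ZsGreen (ZsGreen-negative, n = 5) and with it (ZsGreen-positive, n = 3) and DN3 thymocytes (n = 3) were sequenced as bulk RNA, and all 3 groups carry both alleles. ZsGreen-positive cells therefore have Cd3g expression in their own past or in that of their precursors. The study's title places the question in the fate mapping of ILC2 with a history of Cd3g expression, and here the question is which TCR segments were transcribed in each group.

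A TCR beta chain is encoded by a variable (V), a diversity (D) and a joining (J) segment that the RAG recombinase joins in developing T cells, followed by 1 of the constant genes Trbc1 and Trbc2. The alpha chain has V and J segments and the constant gene Trac, and its assembly normally comes after that of the beta chain. DN3 thymocytes, which lack CD4 and CD8, are the stage known for beta chain rearrangement and for the pre-TCR. ILC2 secrete type 2 cytokines and are known to work without a rearranged antigen receptor. Unrearranged segments can be transcribed too, so a count on a segment does not say whether that segment had been joined. In bulk samples, fewer cells with a transcript and less of it per cell cannot be told apart.

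The segments on which the results turn are shown first, because they are short and several resemble each other. All sequences are from the GENCODE M21 transcripts (GRCm38 build), matched by gene identifier, which succeeded for 234 of 234 members. The deposited counts rest on GRCm39, so no coordinates are given. The D segments are shown whole, with the bases both begin with in capitals, since the locus holds these 2 only.
Trbd1: GGGACagggggc
Trbd2: GGGACtgggggggc

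The J segments of 45 to 54 bases are shown for those with the clearest contrast between clusters 1 and 2 of the locus. Capitals mark TTTGG or TTCGG followed by any 4 bases, GG and any base, letters that encode the conserved phenylalanine and glycines of a joining segment. The search covered both strands, and 11 of 14 Trbj members held a match, while 3 (Trbj1-6, Trbj1-7 and Trbj2-6) held none. No match was found on the opposite strand (0 of 14).
Trbj1-1: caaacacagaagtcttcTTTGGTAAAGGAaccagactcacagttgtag
Trbj1-3: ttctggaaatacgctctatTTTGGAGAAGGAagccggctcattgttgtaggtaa
Trbj1-6: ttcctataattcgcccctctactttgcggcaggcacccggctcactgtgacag
Trbj2-1: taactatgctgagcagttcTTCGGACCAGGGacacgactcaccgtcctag
Trbj2-3: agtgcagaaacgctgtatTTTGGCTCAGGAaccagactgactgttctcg
Trbj2-6: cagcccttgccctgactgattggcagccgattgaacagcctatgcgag
Trbj2-7: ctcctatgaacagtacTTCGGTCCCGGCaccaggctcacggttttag

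The last 60 bases of the V segments most discussed are shown with TGTGC in capitals, letters that hold the codon of the conserved cysteine near the end of a V segment. On the sense strand these letters were found in the last 60 bases of 26 of 35 Trbv members, 19 of the 22 annotated genes and 7 of the 13 annotated pseudogenes, and of 97 of 120 Trav members. On the opposite strand 1 Trbv member held them. Trav18 is shown although it holds none.
Trbv13-2: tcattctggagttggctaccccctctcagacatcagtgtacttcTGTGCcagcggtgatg
Trbv12-2: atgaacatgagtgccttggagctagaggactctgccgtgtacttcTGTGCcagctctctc
Trav17: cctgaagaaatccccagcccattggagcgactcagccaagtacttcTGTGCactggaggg
Trav18: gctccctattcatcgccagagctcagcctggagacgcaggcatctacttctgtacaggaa
Trav6d-3: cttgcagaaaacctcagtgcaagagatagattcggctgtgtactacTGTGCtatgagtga
Trav6-3: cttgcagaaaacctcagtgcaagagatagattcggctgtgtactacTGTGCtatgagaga

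Total counts ranged from 4495260 to 17627469 per library, and levels are given as CPM (each count divided by its library's total) with TMM scaling over the 11 libraries. The markers fitted the labels. Of the ILC2 genes, 11 of 11 were lower in DN3 than in either lung group, where 41.2% and 40.3% of all genes were. Of these, 4 had 0 counts in DN3, and Il5 and Arg1 had only 3 and 8 over the DN3 libraries. All of these passed the filter through the lung only and had to be lower, so their calls are a description. Gata3, Il7r and Id2, with 2108, 3222 and 258 counts in DN3, measured 84.0, 129 and 10.3 CPM there and 604 CPM or more in both lung group means. Of the DN3 genes high enough in the lung to be tested there, 4 of 5 were higher in DN3 against ZsGreen-negative ILC2, where 35.5% of all genes were. Genes of later thymocytes and mature alpha-beta T cells (12 genes, none at 0 in a group) summed to 59.6 to 74.5 CPM in ZsGreen-negative, 54.7 to 71.5 CPM in ZsGreen-positive and 488 to 508 CPM in DN3 libraries. Gamma-delta T cell genes (7 measured) summed to 150 to 212, 193 to 240 and 1098 to 1181 CPM, and lung structural genes (18) to 419 to 1179, 1048 to 2634 and 169 to 188 CPM. B cell genes (7) summed to 94.6 to 114, 100 to 168 and 181 to 191 CPM, and macrophage genes (8) to 55.3 to 148, 112 to 233 and 16.6 to 19.0 CPM. Their part in the levels of the TCR segments was not tested. All DN3 libraries were of a batch of their own (17 October 2024), so batch and tissue cannot be told apart there, whereas both lung groups had libraries of 2 September 2024 and of 8 April 2025.

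Of the 234 members, 114 had no count in any of the 11 libraries and 120 had at least 1. A level of 1 CPM or more in every library of a group was reached by 15 members in ZsGreen-negative ILC2, by the same 15 in ZsGreen-positive ILC2 and by 41 in DN3, which include those 15. The 15 were Trbd1, all 7 Trbj1 segments, Trbj2-1, Trbj2-2, Trbj2-3, Trbj2-7, Trbc1, Trbc2 and Trac. The lung set thus held D, J and constant segments and no V segment. The 26 members that reached this level in DN3 only were 19 Trbv, Trbd2, Trbj2-4, Trbj2-5, Trbj2-6 and 3 Trav.

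**Figure D1:**
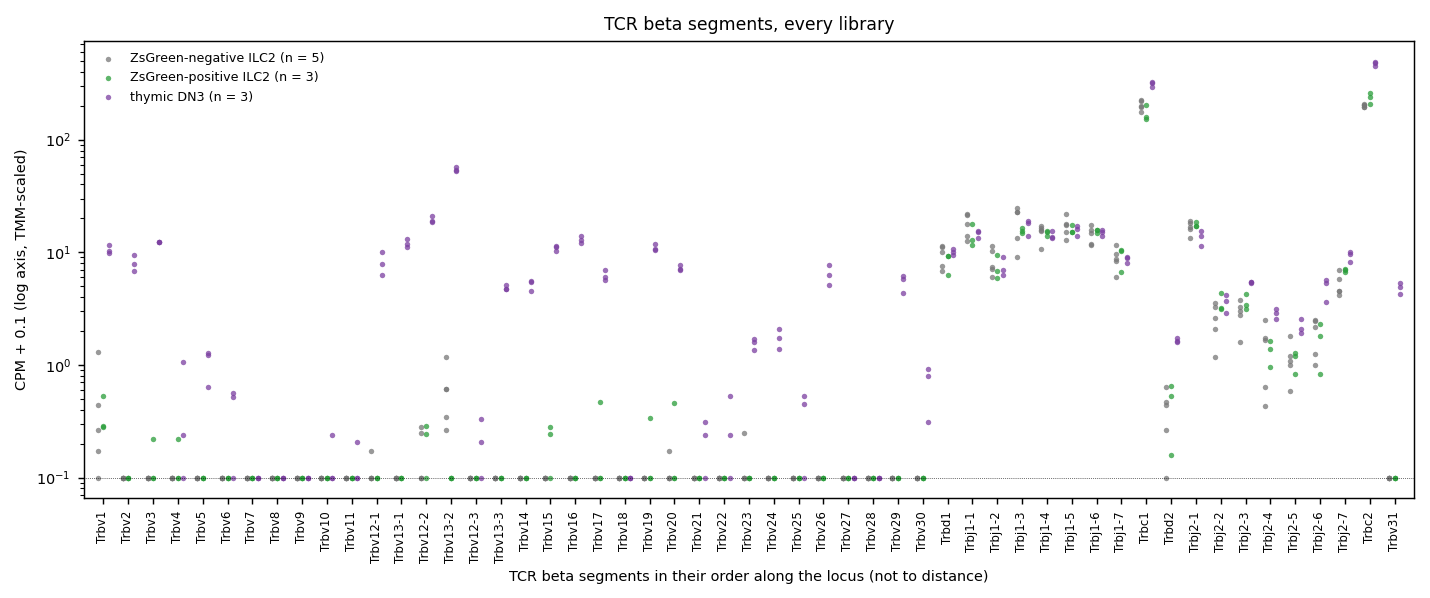
Level of each TCR beta segment in every library (CPM + 0.1, log axis), in the order of the segments along the locus; each point is 1 library, grey for ZsGreen-negative ILC2, green for ZsGreen-positive ILC2 and purple for DN3, and the dotted line is a count of 0. Lung libraries lie at or near 0 over the Trbv segments and as a whole overlap DN3 from Trbd1 to Trbj1-7, while both constant genes lie higher in DN3.

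Summed over their class, the 35 Trbv segments measured 0.985 ± 0.430 CPM (SD, n = 5) in ZsGreen-negative ILC2, 0.883 ± 0.265 CPM (SD, n = 3) in ZsGreen-positive ILC2 and 205 ± 9.37 CPM (SD, n = 3) in DN3. In counts that was 34, 29 and 5111 over the libraries of each group. The Trbd sum, by contrast, was 9.57 ± 2.03, 8.54 ± 2.04 and 11.4 ± 0.593 CPM, and the Trbj sum 130 ± 25.1, 127 ± 9.19 and 133 ± 8 CPM. Constant genes summed to 402 ± 22.9, 406 ± 49.4 and 786 ± 42.1 CPM. The V segments separated DN3 from both lung groups without overlap, the J sums of the 3 groups overlapped, and the constant sum lay higher in every DN3 library than in every lung library. The D sums of DN3 (10.8 to 12 CPM) overlapped those of ZsGreen-negative ILC2 (7.32 to 11.5 CPM) and lay above those of ZsGreen-positive ILC2 (6.18 to 9.76 CPM).

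As a share of all beta locus counts (a share of counts, not per length), Trbv took 0.181% ± 0.0782 (SD, n = 5) in ZsGreen-negative ILC2, 0.161% ± 0.0325 (SD, n = 3) in ZsGreen-positive ILC2 and 18% ± 0.253 (SD, n = 3) in DN3. Trbj took 23.9% ± 3.93, 23.5% ± 2.28 and 11.7% ± 0.772, and the constant genes 74.2% ± 4.25, 74.7% ± 2.61 and 69.2% ± 0.683.

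**Figure D2:**
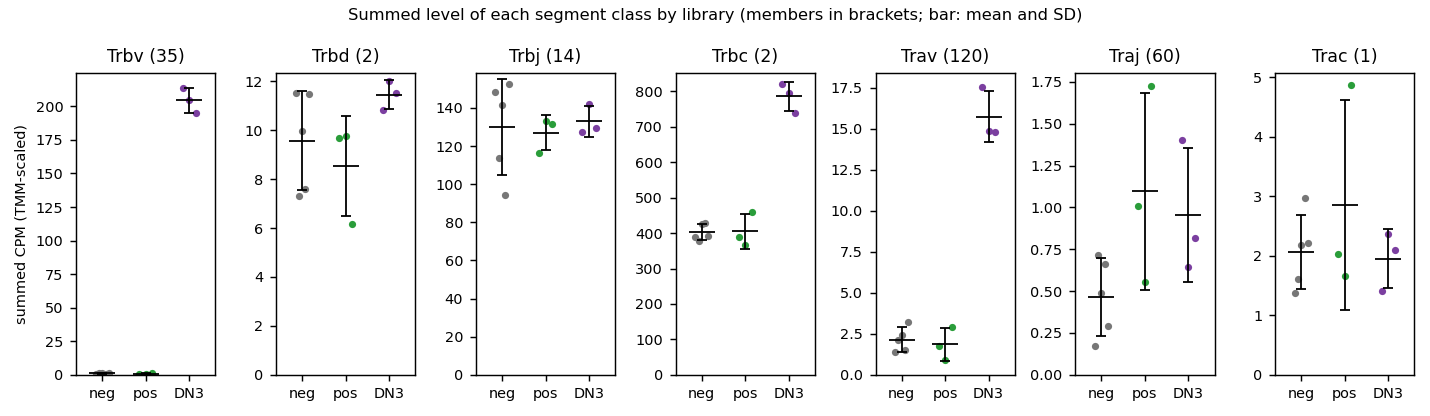
Summed TMM-scaled CPM of each segment class in every library (points), with mean and SD (bars), for ZsGreen-negative ILC2 (neg, n = 5), ZsGreen-positive ILC2 (pos, n = 3) and DN3 (n = 3); each panel has its own linear axis from 0. Trbv is under 1.5 CPM in every lung library and 195 to 214 CPM in DN3, whereas the Trbj and Trac points of the 3 groups overlap. The Trbd points of DN3 overlap the ZsGreen-negative points and lie above the ZsGreen-positive points.

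The test was edgeR's quasi-likelihood F test over all genes that passed a filter on low counts, and a gene was called where its p adjusted by Benjamini and Hochberg (BH) was under 0.05. The filter let 16 members into the lung comparison and 41 into each comparison with DN3. The 25 members tested only with DN3 passed through their DN3 counts, which selects for members higher there. All 25 were higher in DN3 than in either lung group, so this count is a description. Over the other 16, 5 were higher in DN3 against ZsGreen-negative ILC2 (31.2%, where 35.5% of all 15132 genes tested were called higher), none was lower (41.2% of all genes were) and 11 were not called. Against ZsGreen-positive ILC2, 3 of the 16 were higher (18.8%, where 34.8% of all genes were), 1 was lower (40.3% of all genes were) and 12 were not called. These shares are close to or under the share over all genes.

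ZsGreen-positive and ZsGreen-negative ILC2 were compared in a fit with batch as a term, and no member was called higher (2.35% of 13771 genes were) or lower (2.18% were). At an unadjusted p under 0.05, 3 of the 16 differed by edgeR: Trbc2, Trbc1 and Trbj1-1. DESeq2, run as an alternative, called 0 as well and had 2 at that unadjusted level. The 16 log2 differences lay between -0.38 and 0.50. A p that misses the threshold does not show that the groups were alike, and the other 218 members were too low to test.

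Among the V segments, Trbv13-2, one of the members of the Trbv13 family, had the highest level in DN3, also per length. It measured 56.8, 54.1 and 52.4 CPM in the 3 DN3 libraries. In ZsGreen-negative ILC2 it was read at 3, 6, 1, 1 and 7 counts in the 5 libraries (0.502 ± 0.355 CPM, SD, n = 5). In ZsGreen-positive ILC2 it had 0 counts in all 3 libraries, which allows up to 0.103 CPM over the group (3 counts, counting error only). DN3 thus lay 106-fold over ZsGreen-negative ILC2 (95% counting interval 66.9 to 180) and at least 528-fold over ZsGreen-positive ILC2, values given as a description because the segment passed the filter only through DN3.

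Every ZsGreen-negative library held a Trbv13-2 count and no ZsGreen-positive library did, in both batches: 3, 6, 1 and 1 against 0 and 0 counts in 2024, and 7 against 0 in 2025. Over the pooled libraries ZsGreen-negative ILC2 stood 4.97-fold over what 0 counts allow in ZsGreen-positive ILC2, with its own 18 counts taken without error. The segment was too low for the filtered lung comparison. In a fit without that filter, edgeR called it lower in ZsGreen-positive ILC2 (BH-adjusted p = 0.0300). That is the only member called between the lung groups in any of the 16 settings, and 18 counts carry it.

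Trbv12-2 followed, at 18.7, 21 and 18.5 CPM in DN3. It had 3 counts over the ZsGreen-negative and 2 over the ZsGreen-positive libraries, so that DN3 was 229-fold (95% counting interval 77.8 to 1112) and 284-fold (78.3 to 2354) higher. Per length of the longest annotated transcript, Trbv13-2 measured 160 ± 6.48 CPM per kb in DN3 and Trbv12-2 50.4 ± 3.60 CPM per kb (SD, n = 3). Trbv13-1 and Trbv16 came next at 32.7 ± 2.73 and 32.3 ± 2.30 CPM per kb, which do not differ beyond their spread. Trbv13-2 took 26.5%, 26.4% and 26.8% of the Trbv counts of the 3 DN3 libraries, a share of counts. The 3 libraries thus differed little in the share of this segment.

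Of the other V segments that lead in DN3, Trbv16 and Trbv13-1 had 0 counts in all 8 lung libraries. Trbv16 measured 12.8, 13.8 and 12 CPM in DN3, at least 151-fold over ZsGreen-negative and 125-fold over ZsGreen-positive ILC2. Trbv13-1 measured 13.1, 11.1 and 11.6 CPM, at least 139-fold and 115-fold. Trbv3 measured 12.4, 12.3 and 12.2 CPM in DN3 with 2 counts in 1 ZsGreen-positive library and none in ZsGreen-negative ILC2. Trbv19 measured 11.8, 10.6 and 10.5 CPM in DN3 with 4 counts in that same ZsGreen-positive library (replicate 3) and none in ZsGreen-negative ILC2.

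The V segments split by annotation. Of the 22 annotated Trbv genes, 18 had a mean of 1 CPM or more in DN3, and the others were Trbv4, Trbv5, Trbv21 and Trbv30. Of the 13 pseudogenes only Trbv24 did, at 1.97, 1.29 and 1.63 CPM. The pseudogenes summed to 2.57 ± 0.183 CPM in DN3 (SD, n = 3) and had no count in any lung library. TGTGC stood at the end of 17 of the 19 Trbv members that reached 1 CPM in every DN3 library. Trbv31, the V segment on the far side of Trbc2 in the locus, measured 5.20, 4.82 and 4.19 CPM in DN3 and had 0 counts in the lung.

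Lung V counts were few and spread over segments: 6 of 35 Trbv members had a count in ZsGreen-negative and 8 of 35 in ZsGreen-positive ILC2. At an equal depth of 4495260 counts, between 1.34 and 3.58 Trbv members would be expected with a count in a lung library and between 23.8 and 25.7 in a DN3 library. Trbv1, the V segment at the outer end of the locus, was the other segment read in most lung libraries, at 2, 0, 5, 1 and 1 counts in ZsGreen-negative and 3, 1 and 3 in ZsGreen-positive ILC2. In DN3 it measured 10.1, 11.5 and 9.66 CPM.

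Of the D segments, only Trbd1 was high enough in the lung to be tested there. Trbd1, at the head of the first cluster, measured 6.78 to 11.2 CPM (median 9.96) in the ZsGreen-negative, 9.24, 9.21 and 6.12 CPM in ZsGreen-positive and 9.27, 10.5 and 9.90 CPM in DN3 libraries, so that DN3 overlapped ZsGreen-negative ILC2 and lay just above every ZsGreen-positive library. Its log2 difference was 0.08 ± 0.202 (SE) for DN3 against ZsGreen-negative ILC2 and 0.31 ± 0.226 against ZsGreen-positive ILC2 (edgeR, BH-adjusted p = 0.726 and 0.213). Trbd2, at the head of the second cluster, measured 1.55, 1.5 and 1.63 CPM in DN3 and at most 0.552 CPM in a lung library. On 11, 7 and 39 counts in the 3 groups, DN3 stood 4.98-fold over ZsGreen-negative (95% counting interval 2.5 to 10.8) and 6.49-fold over ZsGreen-positive ILC2 (2.87 to 17.2). Trbd2 passed the filter only through its DN3 counts, so these values are a description. The share of Trbd1 in the D counts was 96.9% ± 2.66 (SD, n = 5), 96.3% ± 2.44 (SD, n = 3) and 86.4% ± 0.992 (SD, n = 3).

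The J segments of the first cluster overlapped between the 3 groups. Their sum was 99.0 ± 21.8 CPM in ZsGreen-negative (SD, n = 5), 91.7 ± 7.82 in ZsGreen-positive (SD, n = 3) and 91.8 ± 7.45 CPM in DN3 (SD, n = 3). None of the 7 was called in any comparison, and the log2 differences of DN3 from ZsGreen-negative ILC2 ran from -0.27 to 0.06. Trbj1-3 shows the spread: 22.5, 13.2, 24.8, 8.92 and 22.9 CPM in the ZsGreen-negative, 15.3, 14.7 and 16.3 in ZsGreen-positive and 18.8, 18.1 and 13.7 CPM in DN3 libraries. Trbj1-6 varied less, at 11.4 to 17.2 CPM (median 14.6), 14.6 to 15.8 CPM and 13.8 to 15.5 CPM. In both segments the DN3 values lie inside the ZsGreen-negative range.

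Trbj1-1, Trbj1-4 and Trbj1-5 also overlapped between the groups. Trbj1-1 measured 17.4 ± 4.31, 14.0 ± 3.31 and 14.6 ± 1.18 CPM in the 3 groups, Trbj1-5 measured 17 ± 3.41, 15.9 ± 1.24 and 15.6 ± 1.69 CPM, and Trbj1-4 measured 15 ± 2.56, 14.7 ± 0.832 and 14.0 ± 1.08 CPM. Trbj1-1 was the only J segment of the lung comparison with an unadjusted p under 0.05 (log2 difference of ZsGreen-positive from ZsGreen-negative -0.38 ± 0.175 (SE), edgeR, BH-adjusted p = 0.278). Its ZsGreen-positive values of 11.6, 12.7 and 17.8 CPM overlap the ZsGreen-negative values of 12.4 to 21.9 CPM.

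The second cluster was uneven. Trbj2-6, annotated as a pseudogene, measured 3.51, 5.25 and 5.59 CPM in DN3 against 0.892 to 2.43 CPM (median 2.06) in ZsGreen-negative and 0.722 to 2.21 CPM in ZsGreen-positive libraries, with no overlap. It was higher in DN3 by 1.40 ± 0.353 and 1.62 ± 0.403 log2 units (SE; edgeR, BH-adjusted p = 0.00111 and 0.00104). Trbj2-7, the last J segment before Trbc2, measured 8.15, 9.64 and 10.01 CPM in DN3, and in the lung 4.10 to 6.80 CPM (ZsGreen-negative) and 6.60 to 7 CPM (ZsGreen-positive). Against ZsGreen-negative ILC2 it was higher in DN3 by 0.87 ± 0.202 log2 units (BH-adjusted p = 0.000537, edgeR) and against ZsGreen-positive ILC2 the difference was 0.45 ± 0.219 (BH-adjusted p = 0.0705).

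Trbj2-3 lay at 5.20, 5.36 and 5.36 CPM in DN3 and at 1.49 to 3.68 and 3.03 to 4.19 CPM in the lung groups. Its log2 difference was 0.90 ± 0.275 against ZsGreen-negative (edgeR, BH-adjusted p = 0.00542) and 0.61 ± 0.301 against ZsGreen-positive ILC2 (BH-adjusted p = 0.0711). Trbj2-4 and Trbj2-5 were also tested only through their DN3 counts, and their levels are given as a description. Trbj2-4 measured 1.29 ± 0.860 CPM in ZsGreen-negative (SD, n = 5), 1.23 ± 0.343 in ZsGreen-positive (SD, n = 3) and 2.77 ± 0.284 CPM in DN3 (SD, n = 3). Trbj2-5 measured 1.04 ± 0.447, 1.01 ± 0.249 and 2.09 ± 0.333 CPM in the same order.

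Trbj2-1, the first J segment of the second cluster, went the other way. It measured 11.2, 13.7 and 15.5 CPM in DN3, 13.4 to 18.9 CPM (median 16.5) in ZsGreen-negative and 17, 18.4 and 17.1 CPM in ZsGreen-positive libraries. It was lower in DN3 than in ZsGreen-positive ILC2, with a log2 difference of -0.37 ± 0.161 (SE; edgeR, BH-adjusted p = 0.0446), a call kept in only 6 of 17 alternatives (adjusted p 0.0289 to 0.204) and lost without any 1 of ZsGreen-positive 1, 2 or 3, DN3 1 or 2, or ZsGreen-negative 1. Against ZsGreen-negative ILC2 the difference was -0.30 ± 0.148 (BH-adjusted p = 0.0665). The first cluster took 75.8% ± 2.48 of the J counts in ZsGreen-negative, 72.3% ± 1.45 in ZsGreen-positive and 69.0% ± 3.53 in DN3 libraries. The DN3 range (65.2% to 72.1%) met the ZsGreen-negative range (72.1% to 77.9%) only at its edge. It overlapped the ZsGreen-positive range (71.2% to 73.9%) through DN3 library 1.

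**Figure D3:**
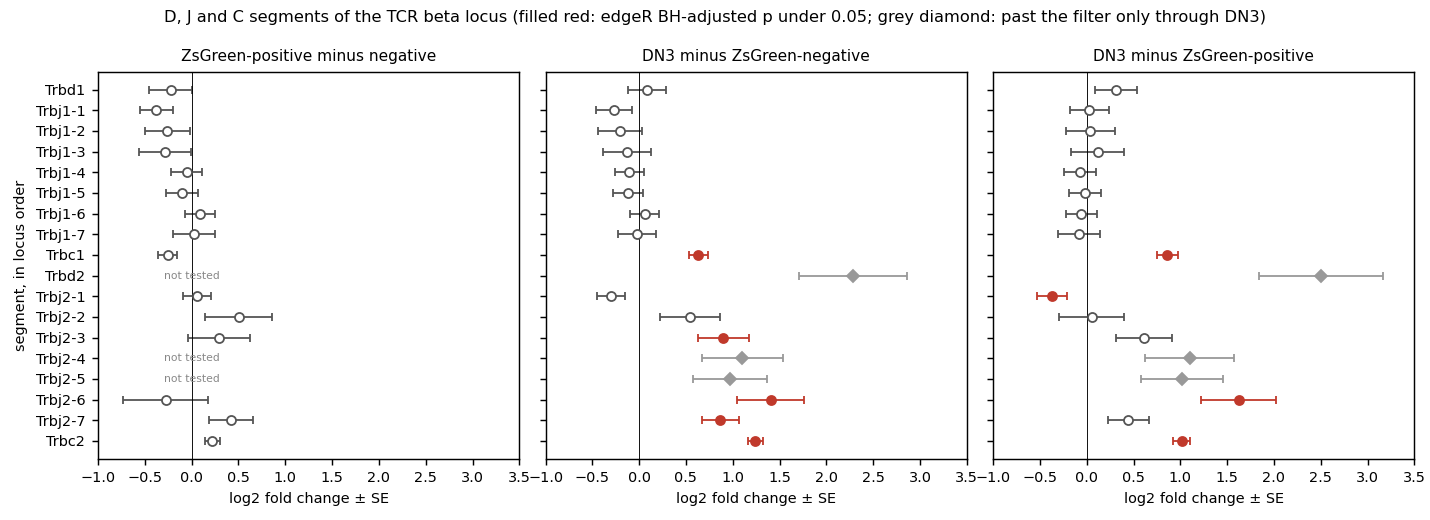
Log2 fold change with SE of the D, J and constant segments of the TCR beta locus in the 3 comparisons, in locus order from top to bottom; filled red points passed the edgeR test (BH-adjusted p under 0.05), open points did not, grey diamonds passed the filter only through DN3 and show no call, and segments too low for the lung comparison are marked as not tested. Points from Trbd1 to Trbj1-7 lie near 0 in all panels, and Trbc1, Trbj2-6 and Trbc2 are red to the right in both DN3 panels.

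Both constant genes were read at 153 CPM or more in every library. Trbc1 measured 194, 175, 223, 220 and 197 CPM in the ZsGreen-negative, 153, 159 and 203 CPM in ZsGreen-positive and 328, 320 and 291 CPM in DN3 libraries. It was higher in DN3 by 0.63 ± 0.0976 log2 units (SE) than in ZsGreen-negative and by 0.86 ± 0.111 than in ZsGreen-positive ILC2 (edgeR, BH-adjusted p = 4.54e-06 and 4.06e-07). Trbc2 measured 195, 203, 202, 208 and 193 CPM in the ZsGreen-negative, 237, 207 and 257 CPM in ZsGreen-positive and 494, 476 and 449 CPM in DN3 libraries. It was higher in DN3 by 1.24 ± 0.0795 and 1.01 ± 0.0911 log2 units (edgeR, BH-adjusted p = 3.31e-12 and 1.35e-09). No DN3 library overlapped a lung library in either gene.

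Between the lung groups the constant genes leaned in opposite directions without passing the test. The log2 difference of ZsGreen-positive from ZsGreen-negative ILC2 was 0.22 ± 0.0833 (SE) for Trbc2 (edgeR, BH-adjusted p = 0.156) and -0.25 ± 0.102 for Trbc1 (BH-adjusted p = 0.192). Trbc2 as a share of the counts of both genes was 50.2%, 53.7%, 47.5%, 48.5% and 49.5% in the 5 ZsGreen-negative libraries and 60.8%, 56.6% and 55.9% in the 3 ZsGreen-positive libraries. In DN3 it was 60.1%, 59.8% and 60.7%. The ZsGreen-positive libraries lay above every ZsGreen-negative library in both batches. Against DN3, ZsGreen-positive library 1 lay just above every DN3 library, and libraries 2 and 3 lay below all of them. The genes are 96.2% identical over 502 aligned bases of their transcripts with an identical run of 259 bases, so the split of reads between them depends on the authors' counting and is uncertain.

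**Figure D4:**
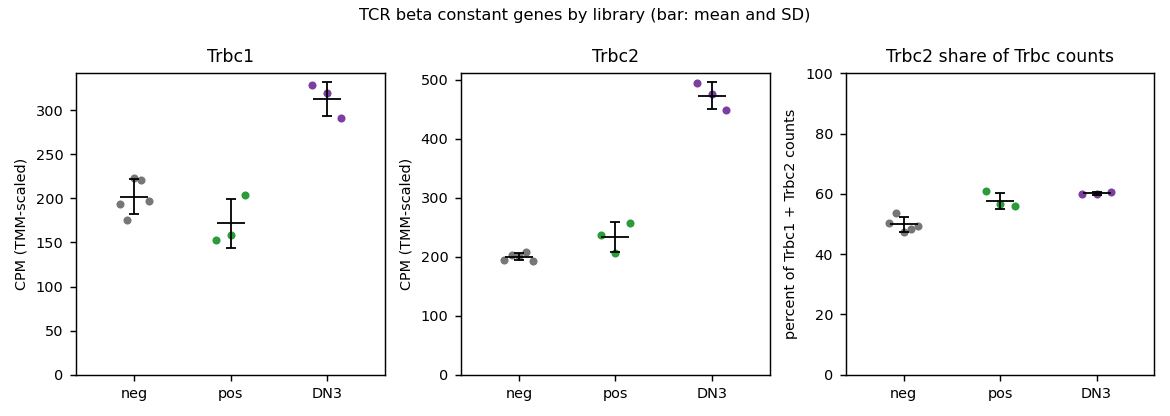
TMM-scaled CPM of Trbc1 and Trbc2 and the share of Trbc2 in the counts of both genes, per library (points) with mean and SD (bars), for ZsGreen-negative ILC2 (neg, n = 5), ZsGreen-positive ILC2 (pos, n = 3) and DN3 (n = 3). The Trbc2 share is 47.5% to 53.7% in ZsGreen-negative, 55.9% to 60.8% in ZsGreen-positive and 59.8% to 60.7% in DN3 libraries.

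The alpha locus was read at a low level throughout: all its members together took 0.853% ± 0.190 of the segment counts in ZsGreen-negative (SD, n = 5), 1.03% ± 0.486 in ZsGreen-positive (SD, n = 3) and 1.62% ± 0.0901 in DN3 libraries (SD, n = 3). Trac, the constant gene, measured 1.38, 1.61, 2.19, 2.97 and 2.21 CPM in the ZsGreen-negative, 2.02, 1.66 and 4.88 CPM in ZsGreen-positive and 1.41, 2.36 and 2.10 CPM in DN3 libraries. The third ZsGreen-positive library lay above all others, and the remaining values overlapped. No comparison called Trac (edgeR, BH-adjusted p = 0.747 between the lung groups, 0.868 and 0.163 for DN3 against ZsGreen-negative and ZsGreen-positive ILC2).

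The 60 Traj segments together had 15 counts in ZsGreen-negative, 39 in ZsGreen-positive and 23 in DN3 libraries, and none could be tested. Of the 39, 29 came from the third ZsGreen-positive library, the one with the highest Trac level and also the highest total count (17627469). Scaled for depth, the Traj sums of the 3 ZsGreen-positive libraries were 1.01, 0.552 and 1.72 CPM. The group means were 0.465 CPM in ZsGreen-negative, 1.10 CPM in ZsGreen-positive and 0.954 CPM in DN3 libraries. Traj58, the highest Traj segment in DN3, had 5 counts there and none in the lung.

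The 120 Trav segments summed to 2.13 ± 0.757 CPM in ZsGreen-negative (SD, n = 5), 1.86 ± 1.00 in ZsGreen-positive (SD, n = 3) and 15.7 ± 1.57 CPM in DN3 (SD, n = 3). In DN3 3 members made up most of it, and these were the only Trav members past the filter. Trav17 measured 5.76, 4.39 and 5.47 CPM in DN3 and 0 in all 8 lung libraries, at least 60.4-fold over ZsGreen-negative and 50.1-fold over ZsGreen-positive ILC2. Trav18 measured 5.20, 4.82 and 3.96 CPM in DN3 and 0 in the lung, at least 54.3-fold and 45.0-fold. Trav13-5 measured 1.97, 2.25 and 2.21 CPM in DN3 and at most 0.728 CPM in a lung library. DN3 stood 7.59-fold over ZsGreen-negative (95% counting interval 3.83 to 16.7) and 12.6-fold over ZsGreen-positive ILC2 (5.07 to 40.3). All 3 passed the filter only through DN3, so no test is given for them. In the GENCODE M21 order Trav13-5, Trav17 and Trav18 are neighbours at the end of the V array that faces the J segments.

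The other Trav members that lead in DN3 were below 1 CPM on average and had no lung count: Trav3-3 with 18 counts, most of them in DN3 library 1, Trav2 with 15 and Trav14-1 with 12. Of the 120 Trav members, 112 belong to families with copies in the duplicated part of the locus, among which reads can be split or shared. Without those families the Trav sum was 0 CPM in both lung groups and 10.6 CPM in DN3.

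Some V alpha segments were read in the lung and not in DN3. Trav6d-3 had 4, 2, 3, 3 and 23 counts in the ZsGreen-negative, 7, 4 and 16 in the ZsGreen-positive and 0, 0 and 0 in the DN3 libraries. All 8 lung libraries thus held it, at 0.357 to 1.69 CPM. Pooled over each group, the level was 8.30-fold (ZsGreen-negative) and 7.73-fold (ZsGreen-positive) above what 0 counts allow in DN3 (0.120 CPM). Of the 35 ZsGreen-negative counts, 23 came from replicate 5, at 1.69 CPM, and the other ZsGreen-negative libraries lay closer to that bound. Trav6-3, identical to Trav6d-3 over 344 bases and so not separable from it there, had 16, 10 and 0 counts in the 3 groups, and Trav7-3 had 10, 8 and 0. Trav6-3 and Trav7-3 were picked out after their values were seen. All 3 were too low for the filtered test. Without the filter edgeR called Trav6d-3 lower in DN3 against ZsGreen-negative ILC2. Trav6d-3 was named for its level in the lung, so this call adds no support and the values are a description.

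**Figure D5:**
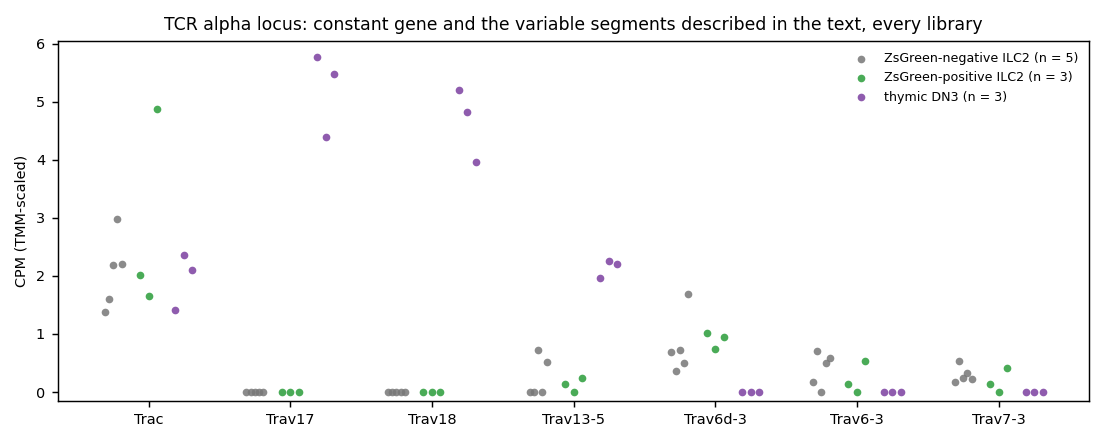
TMM-scaled CPM of Trac and of 6 Trav segments in every library (each point is 1 library; grey ZsGreen-negative ILC2, green ZsGreen-positive ILC2, purple DN3). Trac overlaps between the groups apart from 1 ZsGreen-positive library at 4.88 CPM, Trav17 and Trav18 are at 0 in all lung libraries, and the 3 segments on the right are at 0 in all DN3 libraries.

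The genes that act on these segments were taken from a list of 20 recombination, end joining, pre-TCR and CD3 genes. Of these, 16 were high enough in the lung to be tested there too, and Rag1, Rag2, Dntt and Ptcra passed the filter only through DN3. Of the 16, 10 were higher in DN3 against ZsGreen-negative ILC2 (62.5%, where 35.5% of all genes were) and 2 lower (12.5%, where 41.2% were). Against ZsGreen-positive ILC2, 11 were higher (68.8%, where 34.8% were) and 2 lower (12.5%, where 40.3% were). Rag1, a subunit of the recombinase, measured 1260 ± 47.2 CPM in DN3 and had 8 counts in ZsGreen-negative and 3 in ZsGreen-positive ILC2. Rag2, the other subunit, measured 72.0 ± 4.64 CPM, and Ptcra, which pairs with a new beta chain, 139 ± 6.10 CPM (SD, n = 3). Both had 0 counts in all 8 lung libraries. Dntt, which adds bases at the joins, measured 1076 ± 35.5 CPM in DN3 with 2 counts in the lung. The genes lower in DN3 were the end-joining polymerases Poll and Polm.

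Between the lung groups 4 of the 16 were higher in ZsGreen-positive ILC2 (25%, where 2.35% of all genes were) and none was lower, and all 4 encode CD3 chains. The groups were defined by a reporter of Cd3g expression, so the call of Cd3g is tied to that definition. Cd3g, whose expression the reporter records, measured 35.2 ± 4.33 CPM (SD, n = 5) without and 151 ± 16.5 CPM (SD, n = 3) with the reporter's signal. Cd3e measured 1.60 ± 0.560 and 22.8 ± 4.07 CPM, Cd247 9.36 ± 1.42 and 25.4 ± 2.91 CPM, and Cd3d 0.543 ± 0.178 and 2.33 ± 0.606 CPM. Among the T cell marker lists, 3 of 9 genes of later thymocytes and alpha-beta T cells (Cd2, Cd40lg and Cd3d, the last already counted above) and 3 of 7 gamma-delta T cell genes (Trdc, Trgc2 and Trgc4) were higher in ZsGreen-positive ILC2 and none was lower. The uncalled genes of the alpha-beta list all leaned lower: Cd5 by -0.55, Cd28 -0.49, Themis -0.46, Ccr7 -0.27, Cd6 -0.22 and S1pr1 -0.13 log2 units. The lists thus did not move as a whole. The TCR delta constant gene Trdc differed by 1.55 ± 0.236 log2 units (SE) and the TCR gamma constant gene Trgc4 by 0.83 ± 0.0972 (edgeR, BH-adjusted p = 0.000691 and 4.53e-05). The uncalled genes of the gamma-delta list went both ways. Trgc1, another TCR gamma constant gene, differed by -0.43 and Il17a by -0.51, while Sox13 differed by 0.66 and Trdv4 by 0.25 log2 units. Also called higher in ZsGreen-positive ILC2 were 3 of 17 lung structural genes and 1 of 5 B cell genes. The part of these cell types in the segment levels was not tested. No TCR alpha or beta segment was called higher in the same comparison, but only 16 of the 234 segments were tested there. None of those 16 was a Trbv, Trav or Traj segment. So few tested segments cannot be set apart from the 2.35% of all genes called higher.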

How the data were processed

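The authors deposited whole-number counts per gene, in 1 table of all 11 libraries used here and 1 of the lung libraries with identical values (0 differing). RNA was isolated with a PicoPure kit and libraries were made with a Watchmaker mRNA kit, per the labels' protocols. The submitters' processing notes name GRCm39 and DESeq2. Which aligner, counter and annotation were used, and whether counting used the strand, is not given in the sources used here, so reads of overlapping or antisense genes cannot be told apart. Nor is it given how reads longer than a D or J segment were counted.

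Counts were tested with edgeR 4.0.16 in R 4.3.3 (quasi-likelihood F test, TMM, filterByExpr by group at a minimum count of 10, BH over all genes). The lung groups were fitted over 8 libraries with a batch term, DN3 with both lung groups over all 11. Alternatives used DESeq2 1.42.0, other scalings, no filter, no batch term, 1 batch, a replicate block, only the groups compared, and each library left out. Fold bounds against groups at 0 use 3 counts over the group and take the counts of the higher group without error. Intervals are exact at 95% and, like those bounds, cover counting error only. The code was tested on simulated data.

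The labels do not tie replicates to animals; p-values then reflect only how these libraries vary, possibly for technical reasons. All 16 replicate pairs differed by more than counting error (chi-square over its degrees of freedom 1.72 to 13.4). The members, lists and tests were chosen with earlier results of these data known. Named members were Trbc1, Trbc2, Trac, Trbv13-2, the Trbd segments, the 6 highest per class in DN3, lung members of 0.5 CPM or more (4 per class and group), and members called between the lung groups or lower in DN3 than in both; Trbj2-2 to Trbj2-7, Trbv1, Trbv24 and Trbv31 were added after their values were seen. Other members are named only in counts.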

Additional observations from a re-analysis of the deposited data

Results flagged for a closer look

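Of 44 member and group combinations with 5 libraries tested for a library far from the others, 2 stood out by Dixon's test at the 95% level (critical value 0.71), and chance alone flags about 1 in 20. Trbj1-4 was low in 1 ZsGreen-negative library, replicate 4, at 10.6 CPM, while the other 4 lay between 15.3 and 17.1 CPM. Trav6d-3 was high in 1 ZsGreen-negative library, replicate 5, at 1.69 CPM on 23 counts, while the other 4 lay between 0.357 and 0.728 CPM.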

How the results depend on the processing

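Over 15 alternatives for the lung comparison and 17 for each comparison with DN3, the counts of members called higher in DN3 stayed within 1.5 times the count reported (25 to 42). Of the 30 and 28 reported, 25 in each comparison were tested only with DN3, so the filter largely fixed this count. The other 5 and 3 kept their call in all 17 alternatives. No member was called higher between the lung groups in any alternative, and 1 was called lower, Trbv13-2, in the fit without a filter on low counts. Members called lower in DN3 than in ZsGreen-negative ILC2 numbered 3 with DESeq2, 3 without the filter and 0 to 1 with a library left out, against 0 reported. Against ZsGreen-positive ILC2 they numbered 0 with RLE scaling, 0 with upper-quartile scaling, 3 without the filter, 0 with the replicate block and 0 to 1 with a library left out, against 1 reported; the cause was not tested. The filter bears on this because Trav6d-3, Trav6-3 and Trav7-3 enter only without it. With the replicate block 28 and 27 members were higher in DN3, and none was called between the lung groups. Same-numbered libraries did not deviate together (correlations -0.138 to 0.0782). Replicate 3 was of 2 September 2024 in ZsGreen-negative and of 8 April 2025 in ZsGreen-positive ILC2, so the numbers need not pair libraries. Whether libraries with different numbers deviate together was not tested. For the members that the naming rule takes, 817 of 830 values kept their direction and side of the threshold, 11 lost and 2 gained a call, all of Trbj2-1, and none reversed. The Trbv, Trav and Trbd2 values among the 830 passed the filter only through DN3, so their calls had little room to change. Of members outside the rule, Trbj2-4 lost its call in 5 and 7 and Trbj2-5 in 7 and 8 of 17 alternatives against ZsGreen-negative and ZsGreen-positive ILC2, while Trbj2-3 and Trbj2-7 each gained 1 against ZsGreen-positive ILC2. Unscaled CPM put DN3 sums higher (Trbv 247, Trbd 13.8, Trbj 161, Trbc 948 and Trav 19.0 CPM) and the ZsGreen-negative Trbc sum at 371 CPM. The median log2 difference of all genes between DN3 and ZsGreen-negative ILC2 went from -0.10 to 0.01 with upper-quartile scaling, and 30 members were then higher in DN3 than in each lung group. At these depths a group at 0 allows up to 0.0853, 0.103 and 0.120 CPM in ZsGreen-negative, ZsGreen-positive and DN3 libraries.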
